A study of Mus musculus with 40 samples.

Results

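The 10 genes described here encode the enzymes that build purine and pyrimidine nucleotides from small precursors: Ppat, Gart, Pfas, Paics and Atic on the shared purine trunk, Impdh2 and Adssl1 on its branches, and Cad, Dhodh and Umps in pyrimidine synthesis. They were picked by gene symbol from the 22844 genes listed, and all 10 were among the 13543 genes with enough reads to test. The symbol Ppat stood on 2 gene entries, so that 11 entries carried the 10 symbols. ENSMUSG00000029246 was used, because GENCODE M21 names the other entry, ENSMUSG00000001755, Coasy, a gene of coenzyme A synthesis that has Ppat as an alias.

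mRNA was measured in extensor digitorum longus (EDL), a fast hindlimb muscle of the mouse, in 8 groups of 5 mice with 1 library each, 40 in all. TSCmKO mice lacked Tsc1, an inhibitor of the kinase complex mTORC1, in skeletal muscle fibers, and control littermates (CON) carried the Tsc1 fl/fl alleles without Cre; the strain of all of them was labelled Tsc1tm1Djk/J. The promoter driving Cre is not given in the sources used here, so that the cells in which it acted cannot be stated more closely. Mice were 3 or 9 months old and were injected intraperitoneally for 3 days with vehicle (3mCON, 3mTSCmKO, 9mCON, 9mTSCmKO) or with the mTORC1 inhibitor rapamycin, RM (3mCON+RM, 3mTSCmKO+RM, 9mCON+RM, 9mTSCmKO+RM). Each group held different mice, and the vehicle groups are also called untreated below. The labels give 4 mg per kg for rapamycin, whereas the study text gives a higher dose, so that the dose is uncertain.

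De novo synthesis assembles the purine ring stepwise on phosphoribosyl pyrophosphate (PRPP) until inosine monophosphate (IMP) is reached, and IMP is then turned into AMP or GMP. The pyrimidine ring is closed first and joined to PRPP afterwards, giving UMP. In growing cells mTORC1 is known to promote both routes, through phosphorylation of CAD for pyrimidines and through transcription factors that act on purine and one-carbon genes. Adult muscle fibers do not divide, and much of their purine turnover runs through the purine nucleotide cycle, in which the muscle adenylosuccinate synthetase encoded by Adssl1 works beside AMP deaminase.

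Tsc1 was at most 35.8 CPM in all TSCmKO libraries and at least 51.3 CPM in all CON libraries (CPM, the count of a gene relative to the TMM-scaled total of its library). Library totals ran from 8883870 to 35224669 counts, and the counts of the 10 genes from 74 for Umps to 27768 for Adssl1. The expression profile of 9mTSCmKO replicate 1 stood apart: its median correlation with its group was 0.937, against 0.966 to 0.989 in the other libraries. The calls of the 10 enzymes that changed without it are named with the results, for the comparisons that use 9mTSCmKO. The other comparisons share the same fitted spread of each gene, and the effect of this library on them was not examined. Insert sizes on the labels ran from 175 to 239 bases at 3 months and from 223 to 308 at 9 months, with none given for 9mTSCmKO+RM replicate 5, so that age and library preparation cannot be told apart. Summed CPM of 8 muscle fiber markers was 96600 to 112000 in 9mTSCmKO, 162000 to 171000 in 9mCON and 145000 to 188000 in 9mTSCmKO+RM. In these bulk samples, fewer cells of a type and less RNA per cell cannot be told apart.

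The purine trunk starts with Ppat, the amidotransferase that commits PRPP to purines (GRCm38, chromosome 5, 76913249 to 76951578, minus strand). Paics, a bifunctional enzyme of the middle of the route, lies head to head with it (chromosome 5, 76951307 to 76967509, plus strand), and the annotated genes overlap at their starts, by 271 bases between the start sites. Gart carries 3 activities of the route (chromosome 16, 91621186 to 91646952, minus strand), and its start lies 554 bases from that of Son, a splicing factor gene on the other strand. Pfas (chromosome 11, 68985697 to 69008460, minus strand) adds an amide nitrogen, and Atic (chromosome 1, 71557150 to 71579631, plus strand) takes the final pair of steps to IMP. Impdh2 (chromosome 9, 108560286 to 108565584, plus strand) oxidises IMP on the way to GMP, and Adssl1 (chromosome 12, 112620045 to 112641360, plus strand) joins IMP to aspartate on the way to AMP. In pyrimidine synthesis Cad (chromosome 5, 31054780 to 31078479, plus strand) performs the opening steps, Dhodh (chromosome 8, 109591343 to 109608673, minus strand) oxidises dihydroorotate in mitochondria, and Umps (chromosome 16, 33954782 to 33967038, minus strand) makes UMP. All 10 are annotated as protein-coding genes.

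Of these loci 5 overlap a listed gene on the opposite strand (Ppat, Paics, Gart, Impdh2 and Umps) and none overlaps one on its own strand, and per the study's methods reads were counted by strand. Of the distinct stretches of 31 bases in their protein-coding transcripts, 1.76% for Pfas and 0.286% for Atic also occur in a transcript of another listed gene, and 0 for the other 8.

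Compared per transcript length, as TPM, Adssl1 was by far the most abundant of the enzymes in this muscle. In 3mCON it reached 851 ± 24.5 TPM (SD, n = 5). Paics followed with 97.6 ± 8.02 TPM and Impdh2 with 71.8 ± 5.29 TPM, and the ranges of these 3 genes did not overlap. Gart (25.4 ± 2.49 TPM), Ppat (23.4 ± 2.39) and Pfas (22.4 ± 0.563) formed the middle, where the range of each overlapped that of the next. Atic (17.8 ± 1.66 TPM) and Dhodh (15.3 ± 1.01) overlapped as well. Cad, at 5.73 ± 0.759 TPM, and Umps, at 4.82 ± 0.418, were the scarcest and overlapped each other. The order of the top 3 was the same in 9mTSCmKO (Adssl1 794 ± 117, Paics 100 ± 18.1 and Impdh2 44.3 ± 7.73 TPM), whereas Impdh2 stood above Paics in 3 rapamycin groups. In 9mCON+RM their ranges did not overlap (94 to 140 against 71.4 to 91.6 TPM), while in 3mCON+RM (108 ± 11 against 92.6 ± 4.58) and 3mTSCmKO+RM (92.3 ± 5.96 against 84.8 ± 8.09) they did.

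**Figure D1:**
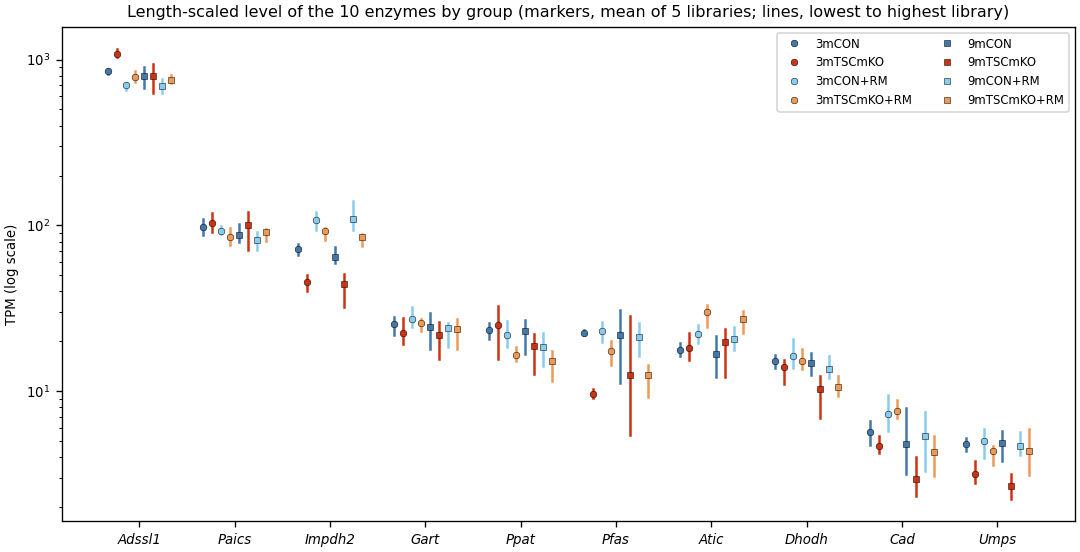
TPM of the 10 enzymes on a log axis, ordered by their level in 3mCON; markers show the mean of 5 libraries in each of the 8 groups and lines run from the lowest to the highest library. Adssl1 lies above the other 9 genes in every group (851 TPM in 3mCON), and Cad (5.73) and Umps (4.82) lie lowest.

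The comparison of vehicle-treated TSCmKO with CON muscle asks what sustained mTORC1 activity does to these transcripts. At 9 months 6 of the 10 genes were lower in TSCmKO (Ppat, Pfas, Impdh2, Cad, Dhodh and Umps) and none was higher. Among all genes tested 18.9% were called lower and 19.1% higher. The median log2 fold change of the 10 genes was -0.48, against -0.022 over all genes. All 3 pyrimidine genes were among those that fell, and of the 7 purine genes 3 fell. Without 9mTSCmKO replicate 1, 5 genes were lower and 1 higher.

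Cad read 5.31, 7.24, 5.53, 5.08 and 6.04 CPM in 9mTSCmKO and 8.8, 8.07, 9.91, 9.33 and 15.1 CPM in 9mCON. Umps read 4.47, 5.12, 6.31, 4.44 and 4.07 CPM against 8.68, 11.2, 10.4, 7.21 and 8.88 CPM. Dhodh read 6.61, 8.47, 10.1, 9.18 and 7.57 CPM against 11.8, 13.1, 13.6, 12.4 and 12.1 CPM. For each of these 3 genes every TSCmKO library lay below every CON library. The log2 fold change was -0.82 (SE 0.15, adjusted p = 3.79e-05) for Cad, -0.92 (SE 0.164, adjusted p = 2.2e-05) for Umps and -0.59 (SE 0.136, adjusted p = 0.000724) for Dhodh. One CON library, replicate 5, was high for Cad.

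Impdh2, the isozyme that supplies most of the IMP dehydrogenase transcript here, read 23.7, 31, 31.8, 25.5 and 29.7 CPM in 9mTSCmKO and 41.2, 48.8, 41.3, 46.5 and 42.2 CPM in 9mCON. The groups did not overlap, and Impdh2 was 0.644-fold the CON level (log2 fold change -0.64, SE 0.116, adjusted p = 3.37e-05).

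Pfas read 39.1, 9.12, 6.7, 11 and 11.4 CPM in 9mTSCmKO against 35.9, 16.2, 24.6, 27.8 and 21.9 CPM in 9mCON. In 4 TSCmKO libraries Pfas lay below every CON library, while replicate 1, the library whose profile stood apart, lay above every CON library. With all libraries the log2 fold change was -0.71 (SE 0.252, adjusted p = 0.0246), and without 9mTSCmKO replicate 1 it was -1.41 (adjusted p = 3.33e-09). The call was lost without any other TSCmKO library of this age (-0.52 to -0.61, adjusted p 0.0685 to 0.0905) and without 9mCON replicate 1 (-0.52, adjusted p = 0.11).

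Ppat read 23.7, 36.4, 39.9, 29 and 39.8 CPM in 9mTSCmKO and 32.5, 50.6, 47.5, 43.1 and 46.1 CPM in 9mCON, and the groups overlapped. Ppat was at -0.38 (SE 0.149, adjusted p = 0.0415), which lost the call when 9mTSCmKO replicate 1 (-0.27, adjusted p = 0.147) or replicate 4 (-0.33, adjusted p = 0.101) or any of 9mCON replicates 2 to 5 (-0.32 to -0.39, adjusted p 0.057 to 0.106) was left out. The other trunk genes did not pass: Gart was at -0.26 (95% interval -0.49 to -0.03, adjusted p = 0.0667), Paics at 0.12 (-0.08 to 0.32) and Atic at 0.18 (-0.06 to 0.42). Gart passed without 9mCON replicate 2 (-0.30, adjusted p = 0.0428) or 9mTSCmKO replicate 2 (-0.32, adjusted p = 0.0357), and Atic passed without 9mTSCmKO replicate 1 (0.29, adjusted p = 0.0381). Adssl1, at 675 ± 78 CPM in 9mTSCmKO and 713 ± 63.5 CPM in 9mCON (SD, n = 5), was at -0.08 (-0.26 to 0.11).

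Marker genes of other cells differed between the same groups. Of the 8 muscle fiber markers 5 were lower in 9mTSCmKO, as were 5 of 7 fibroblast markers, whose summed CPM was 343 to 1220 against 1030 to 2090 in 9mCON. Lower as well were 4 of 6 tendon markers (15.2 to 47.1 against 44.7 to 361 CPM), and 2 of 5 tested genes each among endothelial, Schwann cell and adipocyte markers. Without 9mTSCmKO replicate 1, 5 of the 24 marker calls over all lists were lost and 4 others gained. Then 1 adipocyte, 6 fibroblast and 1 satellite cell marker were lower. Of 10 macrophage markers 1 was higher and 1 lower, the latter not called without 9mTSCmKO replicate 1, with sums of 59.7 to 114 against 67.6 to 190 CPM. The part of these differences in the results was not tested.

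**Figure D2:**
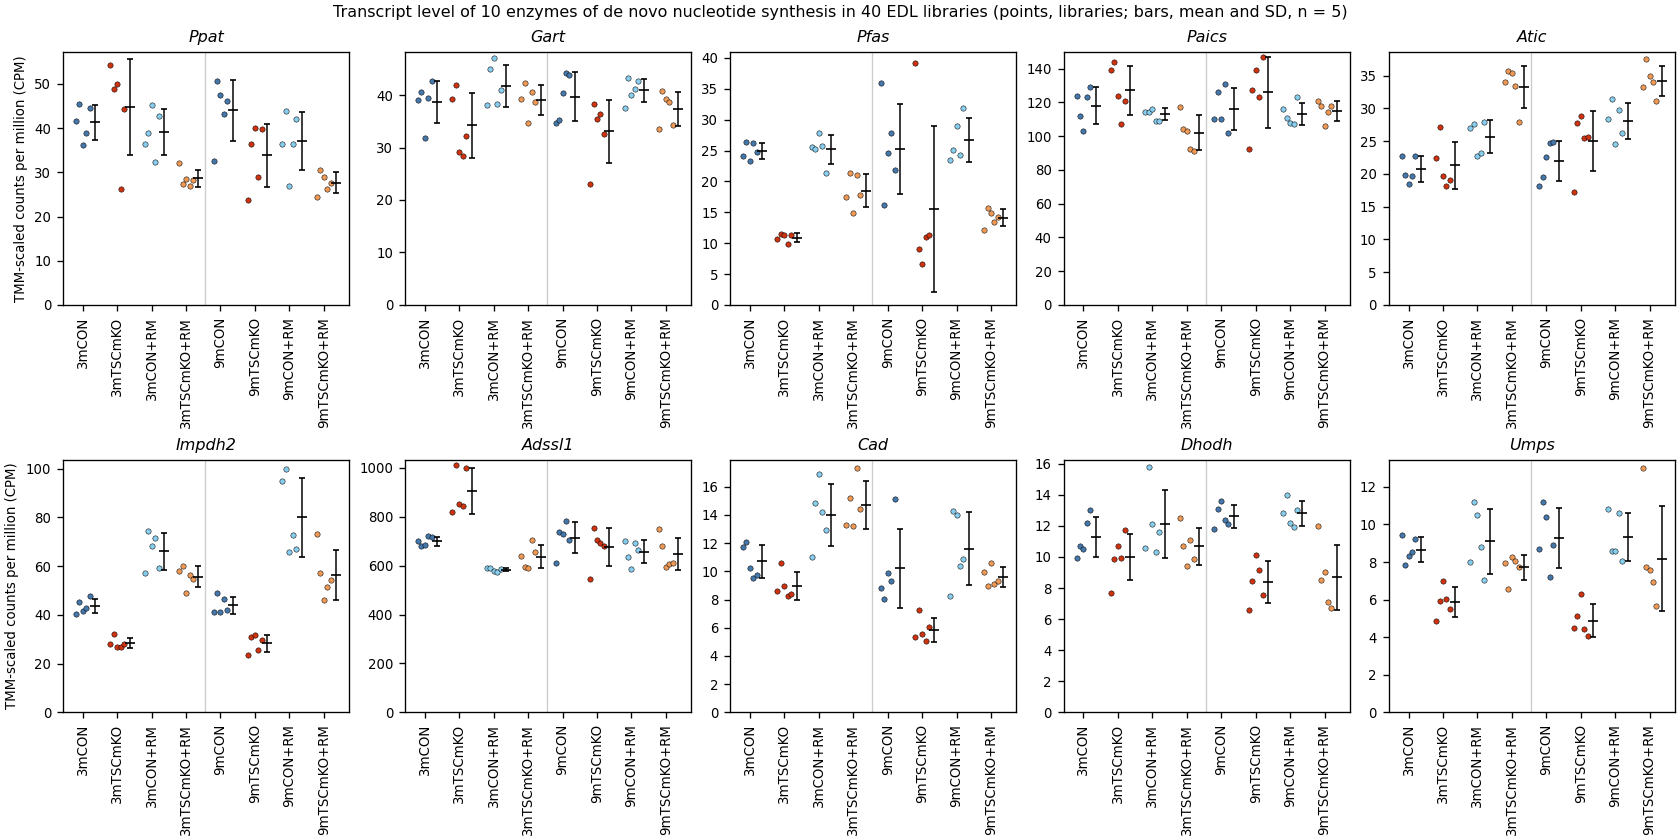
TMM-scaled CPM of each enzyme, from 0, in the 8 groups (3-month groups left of the grey line, 9-month groups right); points are libraries and bars the mean and SD of 5. Cad, Dhodh, Umps and Impdh2 of 9mTSCmKO lie below all 9mCON libraries, and 1 Pfas value of 9mTSCmKO, 39.1 CPM, lies far above the rest of its group.

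At 3 months 4 of the 10 genes differed by genotype: Pfas, Impdh2 and Umps were lower in TSCmKO and Adssl1 was higher. Of all genes tested 8.32% were lower and 11.4% higher. With upper-quartile scaling 1388 genes were lower and 1349 higher by genotype at this age, in place of 1127 and 1549. The median of the 10 genes was -0.17, against -0.024 over all genes.

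Pfas read 10.7, 11.5, 11.4, 9.82 and 11.3 CPM in 3mTSCmKO and 24.1, 26.3, 23.3, 26.2 and 24.7 CPM in 3mCON. Its level was 0.439-fold that of CON (-1.19 as log2, SE 0.256, adjusted p = 0.000664), and the groups did not overlap. Impdh2 read 28.1, 32.1, 26.7, 27 and 28.2 CPM against 40.4, 45.1, 41.4, 42.9 and 47.9 CPM, again without overlap (-0.62, SE 0.116, adjusted p = 0.00011). Umps read 4.88, 5.94, 6.99, 6.05 and 5.51 CPM against 9.46, 7.82, 8.3, 8.51 and 9.21 CPM (-0.56, SE 0.161, adjusted p = 0.0107). Here too the lowest CON library exceeded the highest TSCmKO library.

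Adssl1, the most abundant member, read 817, 1010, 850, 844 and 999 CPM in 3mTSCmKO and 700, 680, 683, 722 and 715 CPM in 3mCON. Every TSCmKO library was higher (0.37 as log2 fold change, SE 0.0912, adjusted p = 0.00281). The remaining genes did not pass, with Cad at -0.25 (95% interval -0.54 to 0.05), Dhodh at -0.17 (-0.44 to 0.10), Gart at -0.18 (-0.41 to 0.05), Ppat at 0.11 (-0.19 to 0.41), Paics at 0.10 (-0.10 to 0.30) and Atic at 0.04 (-0.20 to 0.28). At this age 1 of the 8 muscle fiber and 1 of the 6 tendon markers was lower, and none of the macrophage and fibroblast markers was called.

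The genotype effect was compared between ages by an interaction term. Only Adssl1 passed among the 10 genes, against 4.94% of all genes in either direction, with a difference of -0.45 in log2 fold change (SE 0.129, adjusted p = 0.0342) that goes from 0.37 at 3 months to -0.08 at 9 months. The call was lost without 3mCON replicate 1 or 2, 3mTSCmKO replicate 2 or 5, 9mCON replicate 3 or 4, or 9mTSCmKO replicate 1 (-0.40 to -0.44, adjusted p 0.0506 to 0.0792), and without 3mTSCmKO replicate 4 Ppat passed as well (-0.65, adjusted p = 0.0289). Cad, which was called at 9 months and not at 3, had an interaction of -0.57 with an adjusted p of 0.112, and Dhodh one of -0.42 with an adjusted p of 0.217. Pfas was at 0.48 (adjusted p = 0.482) with all libraries and at -0.23 (adjusted p = 0.609) without 9mTSCmKO replicate 1. Of the markers 2 of 8 muscle fiber and 2 of 5 erythroid genes passed the same interaction, all with negative values and none of them called without 9mTSCmKO replicate 1, and their part in the results was not tested.

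Age itself was compared within genotypes. In CON 0 of the 10 genes were called between 3 and 9 months by edgeR, with 0 at an unadjusted p under 0.05 and 0 by DESeq2, beside 0.679% of all genes higher and 0.34% lower at 9 months. These were 92 and 46 genes, which became 517 and 425 without 9mCON replicate 5 and 24 and 6 without 9mCON replicate 2. For each library but 9mCON replicate 4, leaving it out moved at least 1 of these counts by over 1.5 times. In TSCmKO 3 genes were lower at 9 months (Ppat, Adssl1 and Cad) and 0 higher, beside 18.3% of all genes lower and 19.1% higher. Cad went from 8.97 ± 0.974 CPM at 3 months to 5.84 ± 0.859 CPM at 9 months (SD, n = 5), a log2 value of -0.62 (SE 0.149, adjusted p = 0.00151), and Adssl1 fell by 0.42 (SE 0.0913, adjusted p = 0.000475) from 904 ± 92.8 to 675 ± 78 CPM. Neither gene's groups overlapped. Ppat fell by 0.40 (SE 0.149, adjusted p = 0.0316), with overlapping groups, a call that was lost without 3mTSCmKO replicate 1, 2 or 3 or 9mTSCmKO replicate 1 or 4 (-0.30 to -0.36, adjusted p 0.0755 to 0.119). With insert size as a term the count of 3 became 1: Cad was still called, while Ppat was at -0.32 (adjusted p = 0.322) and Adssl1 at -0.33 (adjusted p = 0.078). Without 9mTSCmKO replicate 1, or without 3mTSCmKO replicate 2, Atic was called higher at 9 months (0.34 in both fits, adjusted p = 0.0176 and 0.0261), and without 9mTSCmKO replicate 2 or 3 so was Pfas (0.64 and 0.69, adjusted p = 0.0466 and 0.0265). With all libraries Pfas was at 0.50 (adjusted p = 0.118) by age in TSCmKO, and without 9mTSCmKO replicate 1, which holds its high value, it was at -0.19 (adjusted p = 0.351). Markers moved beside age in TSCmKO: 4 of 8 muscle fiber, 4 of 7 fibroblast, 4 of 6 tendon, 4 of 5 adipocyte, 4 of 5 erythroid, 3 of 5 tested endothelial and 1 of 10 macrophage markers were lower at 9 months. Higher were 1 marker each of the tendon, Schwann cell, macrophage and cycling cell lists. Without 9mTSCmKO replicate 1, 6 of the 28 marker calls were lost and 2 others gained. The 4 erythroid markers and the lower macrophage marker were then not called, and 2 endothelial and 5 fibroblast markers were lower. The part of these markers in the results was not tested.

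**Figure D3:**
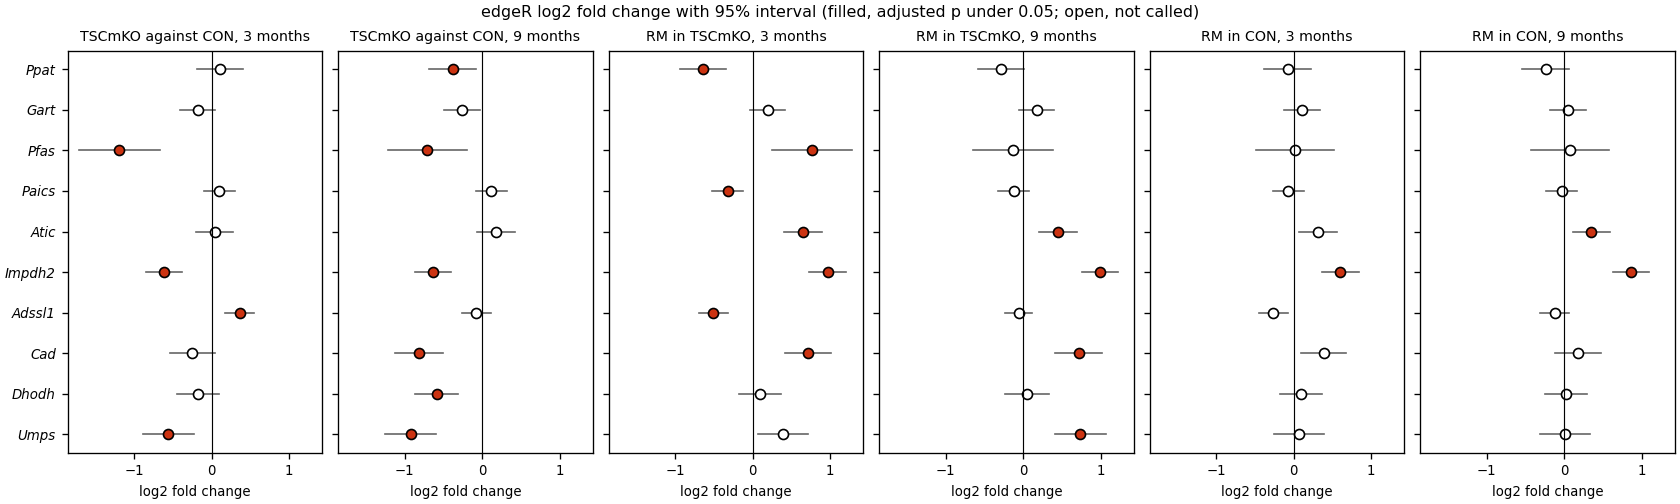
Log2 fold change of the 10 enzymes with its 95% interval for genotype (left pair of panels), rapamycin in TSCmKO (middle pair) and rapamycin in CON (right pair), at 3 and 9 months; filled points have an adjusted p under 0.05. Impdh2 is filled in all 6 panels, below 0 for genotype (-0.62 and -0.64) and above 0 for rapamycin (0.60 to 0.99). The genotype and rapamycin panels share the vehicle groups.

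Treatment for 3 days with rapamycin asks which of these transcripts respond to mTORC1 inhibition. In TSCmKO muscle at 9 months 4 of the 10 genes were higher after rapamycin (Atic, Impdh2, Cad and Umps) and 0 lower, beside 15.8% of all genes higher and 16.8% lower. The medians were 0.11 for the 10 genes and -0.045 for all genes. Of the purine trunk only Atic passed. The vehicle TSCmKO libraries are the same as in the genotype comparison and enter with the opposite sign. Opposite signs by genotype and after rapamycin are therefore not independent results.

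Impdh2 read 73.1, 57.2, 46.1, 51.4 and 54.2 CPM in 9mTSCmKO+RM, against 23.7 to 31.8 CPM in 9mTSCmKO, a 1.99-fold level (log2 fold change 0.99, SE 0.116, adjusted p = 2.77e-08). Atic read 33.3, 37.6, 34.9, 34 and 31.2 CPM against 17.2, 27.8, 28.8, 25.5 and 25.7 CPM (0.45, SE 0.118, adjusted p = 0.00308). Cad read 9.94, 8.93, 10.6, 9.1 and 9.33 CPM against 5.08 to 7.24 CPM (0.71, SE 0.15, adjusted p = 0.000333). In each of these 3 genes all treated libraries were above all untreated ones. Umps read 13, 7.72, 7.56, 6.96 and 5.67 CPM against 4.07 to 6.31 CPM, with replicate 1 highest and an overlap at the low end (0.74, SE 0.165, adjusted p = 0.000625).

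Dhodh, which was lower in TSCmKO at this age, was at 8.68 ± 2.11 CPM after rapamycin and 8.39 ± 1.36 CPM with vehicle (SD, n = 5), a log2 fold change of 0.05 (95% interval -0.23 to 0.33). Ppat was at -0.29 (-0.59 to 0.01), Gart at 0.17 (-0.06 to 0.40), Paics at -0.12 (-0.32 to 0.08), Adssl1 at -0.06 (-0.24 to 0.12) and Pfas at -0.13 (-0.65 to 0.38). Leaving out 9mTSCmKO replicate 1 turned Pfas to 0.54 (adjusted p = 0.00755) and brought Ppat, at -0.42 (adjusted p = 0.0308), and Paics, at -0.24 (adjusted p = 0.0476), past the threshold, so that 5 genes were higher and 2 lower. The treated Pfas libraries read 12.1, 15.7, 14.9, 13.4 and 14.3 CPM.

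At 3 months rapamycin changed 7 of the 10 genes in TSCmKO: Pfas, Atic, Impdh2 and Cad were higher and Ppat, Paics and Adssl1 lower. Among all genes 10.6% were higher and 13% lower. With upper-quartile in place of TMM scaling, 1810 genes were higher and 1438 lower in this comparison, against 1435 and 1761. The medians were 0.29 for the 10 genes and 0.01 for all genes.

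Impdh2 read 58, 60.1, 48.9, 56.4 and 54.6 CPM against 26.7 to 32.1 CPM in untreated 3mTSCmKO (0.97, SE 0.116, adjusted p = 4.68e-08). Atic read 34, 35.7, 35.4, 33.4 and 27.9 CPM against 22.5, 27.2, 19.7, 18.1 and 19.1 CPM (0.65, SE 0.118, adjusted p = 7.32e-05), and Cad read 13.3, 15.2, 13.2, 17.3 and 14.4 CPM against 8.25 to 10.6 CPM (0.72, SE 0.145, adjusted p = 0.000264). The groups did not overlap for any of them. Pfas read 17.5, 21.3, 14.9, 21.1 and 17.8 CPM against 9.82 to 11.5 CPM, without overlap (0.76, SE 0.254, adjusted p = 0.0252), although the call was lost without 3mTSCmKO replicate 4 or 3mTSCmKO+RM replicate 2 or 4 (0.71 to 0.72, adjusted p 0.0575 to 0.0596).

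The opposite direction was seen in the first enzyme of the trunk. Ppat read 32, 27.4, 28.4, 26.9 and 28.3 CPM after rapamycin and 54.2, 48.9, 49.9, 26.3 and 44.2 CPM with vehicle, so that 4 untreated libraries were above all treated ones and replicate 4 was below them (-0.64, SE 0.149, adjusted p = 0.00127). Its head-to-head neighbour Paics read 117, 104, 103, 92.6 and 91.3 CPM against 139, 144, 124, 107 and 121 CPM (-0.32, SE 0.0992, adjusted p = 0.0146), a call that was lost without 3mTSCmKO replicate 2 (-0.27, adjusted p = 0.053). Adssl1 read 639, 593, 590, 703 and 655 CPM against 817 to 1010 CPM without overlap (-0.51, SE 0.0913, adjusted p = 5.52e-05). Gart was at 0.20 (95% interval -0.04 to 0.42), Dhodh at 0.10 (-0.17 to 0.37) and Umps at 0.39 (0.07 to 0.72, adjusted p = 0.0742). Umps passed without 3mTSCmKO replicate 3 (0.47, adjusted p = 0.0448).

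Cell type markers moved beside these results. After rapamycin 4 of 8 muscle fiber markers were higher and 1 lower in TSCmKO at each age. Of 10 macrophage markers 2 were lower at 9 months, with a summed 47.7 to 66.5 against 59.7 to 114 CPM, both not called without 9mTSCmKO replicate 1, and 2 were higher at 3 months, with 106 to 215 against 72.6 to 151 CPM. Of 7 fibroblast markers 2 were higher at 3 months, and their sum at 9 months was 445 to 790 CPM after rapamycin against 343 to 1220 CPM with vehicle. Of 3 tested cycling cell markers 2 were lower at 9 months, Birc5 (-1.0, adjusted p = 0.0309) and Top2a (-1.47, adjusted p = 0.0205), the latter at -0.26 (adjusted p = 0.684) without 9mTSCmKO replicate 1. Also at 9 months 1 endothelial and 1 Schwann cell marker were lower. In addition 1 satellite cell marker was higher, a call lost without 9mTSCmKO replicate 1. At 3 months 1 tendon marker was higher. The part of these markers in the results was not tested.

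In CON muscle, where Tsc1 was intact, the comparison asks which enzymes respond without the deletion. At 9 months Atic and Impdh2 were higher and 0 lower, beside 5.03% of all genes higher and 6.82% lower. These 681 higher genes became 447 without 9mCON replicate 1, and the 923 lower ones 598 and 582 without 9mCON+RM replicate 2 and 5. Impdh2 read 94.9, 99.9, 65.6, 72.6 and 67.1 CPM in 9mCON+RM against 41.2 to 48.8 CPM in 9mCON, without overlap (0.86, SE 0.115, adjusted p = 3.98e-06). Atic read 28.4, 31.5, 24.6, 29.7 and 26.2 CPM against 18.1, 19.5, 22.6, 24.8 and 24.9 CPM, with 1 treated library inside the CON range (0.35, SE 0.12, adjusted p = 0.0475). The Atic call was lost without 9mCON replicate 1, 2 or 3 or 9mCON+RM replicate 1, 2, 4 or 5 (0.29 to 0.37, adjusted p 0.0601 to 0.157), which left 1 gene called, and with the replicate block (0.35, adjusted p = 0.0549).

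At 3 months 1 of the 10 genes, Impdh2, was higher in CON after rapamycin and 0 were lower, beside 0.362% of all genes higher and 0.318% lower. These 49 and 43 genes became 22 and 13 without 3mCON+RM replicate 4, and leaving out any of the 10 libraries moved at least 1 of the counts by over 1.5 times, to 22 to 46 higher and 13 to 35 lower. Impdh2 read 57.3, 74.2, 68.4, 71.5 and 59.2 CPM in 3mCON+RM against 40.4 to 47.9 CPM in 3mCON, and no values overlapped (0.60, SE 0.115, adjusted p = 0.00566). Cad (0.39, adjusted p = 0.299), Atic (0.32, adjusted p = 0.306) and Adssl1 (-0.26, adjusted p = 0.231) did not pass. Adssl1 read 574 to 590 CPM after rapamycin and 680 to 722 CPM with vehicle, and Atic read 22.8 to 27.9 CPM against 18.4 to 22.8 CPM.

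In 9mCON+RM other cell types differed as well. All 7 fibroblast markers were lower, with a summed 169 to 797 CPM against 1030 to 2090 in 9mCON, as were 9 of 10 macrophage markers (17.5 to 52.5 against 67.6 to 190 CPM). The muscle fiber sum was 196000 to 213000 against 162000 to 171000 CPM, with 1 of 8 markers called. Of 6 tendon markers 5 were lower (12.8 to 35.7 against 44.7 to 361 CPM), and of 5 Schwann cell markers 1 was. At 3 months the muscle fiber sum was 165000 to 195000 CPM in 3mCON+RM against 130000 to 169000 CPM in 3mCON, with 0 of 8 markers called. The part of these markers in the results was not tested.

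Whether rapamycin acted differently in TSCmKO and in CON was tested by an interaction. At 9 months 0 of the 10 genes passed by edgeR, with 2 at an unadjusted p under 0.05 (Cad and Umps) and 1 by DESeq2, beside 4.87% of all genes in either direction. Umps was nearest, at 0.73 (SE 0.230, adjusted p = 0.0546), and passed by DESeq2 (0.72, adjusted p = 0.0398) and when 9mCON replicate 4, 9mTSCmKO replicate 3 or 9mTSCmKO+RM replicate 4 or 5 was left out (0.77 to 0.84, adjusted p 0.0282 to 0.0486). At 3 months 0 passed by edgeR, with 3 at an unadjusted p under 0.05 (Ppat, Pfas and Impdh2) and 0 by DESeq2, beside 3.45% of all genes. Without 3mTSCmKO replicate 4 Ppat passed there (-0.71, adjusted p = 0.023). Pfas was at -0.21 at 9 months (adjusted p = 0.789) with all libraries and at 0.47 (adjusted p = 0.188) without 9mTSCmKO replicate 1. For Impdh2 the difference between genotypes in the rapamycin response was 0.13 (95% interval -0.20 to 0.46) at 9 months and 0.37 (0.04 to 0.69) at 3 months.

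Rapamycin-treated TSCmKO muscle was also set against untreated CON muscle of the same age. At 9 months Atic and Impdh2 were higher and Ppat, Pfas and Dhodh lower, beside 15.7% of all genes higher and 16.2% lower. Atic stood at 0.63 (SE 0.119, adjusted p = 6.88e-05) and Impdh2 at 0.36 (SE 0.115, adjusted p = 0.0155), the latter not called without 9mTSCmKO+RM replicate 1 (0.26, adjusted p = 0.0718). Ppat stood at -0.67 (SE 0.15, adjusted p = 0.000623), Dhodh at -0.54 (SE 0.137, adjusted p = 0.00221) and Pfas at -0.84 (SE 0.254, adjusted p = 0.0098), which lost the call without 9mCON replicate 1 (-0.67, adjusted p = 0.051). Cad, at 9.58 ± 0.687 CPM in 9mTSCmKO+RM and 10.2 ± 2.79 CPM in 9mCON (SD, n = 5), was at -0.10 (95% interval -0.40 to 0.20), and Umps was at -0.18 (-0.51 to 0.14). Without 9mTSCmKO+RM replicate 1, the library with the highest Umps value, Umps was at -0.39 (adjusted p = 0.0371). Of the markers 6 of 7 fibroblast, 6 of 10 macrophage and 4 of 6 tendon genes were lower in this comparison, and their part in the results was not tested.

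At 3 months Atic, Impdh2 and Cad were higher in 3mTSCmKO+RM than in 3mCON and Ppat was lower, beside 8.98% of all genes higher and 7.71% lower. Of 10 macrophage markers 4 were higher (106 to 215 against 56.4 to 179 CPM summed), and their part was not tested. Atic was at 0.69 (SE 0.119, adjusted p = 4.81e-05) and Ppat at -0.53 (SE 0.149, adjusted p = 0.0103). Impdh2 was at 0.35 (SE 0.115, adjusted p = 0.028) and Cad at 0.47 (SE 0.144, adjusted p = 0.0201). Without 3mCON replicate 4 or 3mTSCmKO+RM replicate 4 neither Impdh2 nor Cad was called, which left 2 genes (Impdh2 0.35 in both fits, adjusted p = 0.0567 and 0.0533; Cad 0.43 and 0.40, adjusted p = 0.0629 and 0.0772). Impdh2 alone was lost without 3mTSCmKO+RM replicate 1 (0.34, adjusted p = 0.0565) and Cad alone without 3mCON replicate 5 (0.44, adjusted p = 0.051). Pfas, at 18.5 ± 2.67 CPM in 3mTSCmKO+RM and 24.9 ± 1.29 CPM in 3mCON, was at -0.43 (adjusted p = 0.273). With only the compared groups it was at -0.41 (adjusted p = 0.00644). These comparisons share control samples with those above.

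The promoters of the genes that were higher after rapamycin in TSCmKO at both ages are shown from RefSeq (GRCm38.p6), with 250 bases before and 50 bases from the gene start, 5′ to 3′ on the strand of the gene. The table of promoters used here held 8 of the 10 genes, without Dhodh and Pfas. Capitals mark the E-box CACGTG, the element bound by MYC and related factors, and the NRF1 motif, both searched on both strands.
Impdh2, chr9:108560186-108560485, plus strand: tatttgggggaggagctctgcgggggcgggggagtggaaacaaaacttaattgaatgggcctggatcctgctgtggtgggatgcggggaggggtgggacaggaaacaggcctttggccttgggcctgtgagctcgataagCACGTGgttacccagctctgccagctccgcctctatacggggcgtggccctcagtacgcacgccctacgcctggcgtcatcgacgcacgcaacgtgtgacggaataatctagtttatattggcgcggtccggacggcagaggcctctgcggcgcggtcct
Atic, chr1:71556906-71557205, plus strand: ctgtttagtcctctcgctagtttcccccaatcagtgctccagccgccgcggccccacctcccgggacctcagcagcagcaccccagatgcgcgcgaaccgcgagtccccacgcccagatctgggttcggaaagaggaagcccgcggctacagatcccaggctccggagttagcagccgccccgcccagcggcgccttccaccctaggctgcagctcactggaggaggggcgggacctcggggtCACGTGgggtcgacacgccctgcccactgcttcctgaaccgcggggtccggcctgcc
Cad, chr5:31054530-31054829, plus strand: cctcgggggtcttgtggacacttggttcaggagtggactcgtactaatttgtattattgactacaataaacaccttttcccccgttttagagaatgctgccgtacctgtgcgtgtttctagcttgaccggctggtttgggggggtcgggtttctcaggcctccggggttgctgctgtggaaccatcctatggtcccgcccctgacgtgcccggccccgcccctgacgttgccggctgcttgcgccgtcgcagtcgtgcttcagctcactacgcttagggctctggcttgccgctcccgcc
The E-box lies 110 bases before the start of Impdh2 and 7 bases before that of Atic, counted from the RefSeq start in the window, and the window of Cad holds none. For Impdh2 that start lies downstream of the GENCODE gene start given above, so that its E-box is inside the gene as GENCODE places it. Of the 8 members with a window 3 held an E-box (Atic, Impdh2 and Paics), against 7.15% of 32851 promoter windows. The sole match to the NRF1 motif, 42 bases before the start of Ppat, compares with 4.6% of all windows. CCAAT, on either strand, occurred in 4 of the 8 (Atic, Gart, Impdh2 and Paics) and in 37.4% of all windows, and TGATGNAA, the core of the amino acid response element bound by ATF4, in 0 of the 8 and in 3.97%. These matches describe the letters in the windows.

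Members with alternative isozymes differed in how much of the pair they supplied. Adssl1 made up 97.6% to 98.7% of the summed TPM of Adssl1 and Adss, its non-muscle counterpart, as the mean of each group, and Adss, at mean levels of 17.5 to 21.9 CPM, was not called in any of the 13 comparisons by edgeR. The share of Impdh2 in the sum of Impdh2 and Impdh1 was 83.9% ± 2.31 in 9mCON (SD, n = 5) and 70.6% ± 5.8 in 9mTSCmKO, with 60.7% to 75.1% in TSCmKO libraries and 81.9% to 87% in CON libraries. After rapamycin it was 86.9% ± 2.2 in 9mTSCmKO+RM and 89.9% ± 1.91 in 9mCON+RM.

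Impdh1 moved against Impdh2 at 9 months. It read 25.3, 19, 23.6, 18.4 and 20.3 CPM in 9mTSCmKO and 16.2, 14.8, 15.9, 13.4 and 16.2 CPM in 9mCON, and all TSCmKO libraries were higher (0.48, SE 0.114, adjusted p = 0.000964). After rapamycin in 9mTSCmKO it was 15.2 ± 1.12 CPM (-0.49, SE 0.114, adjusted p = 0.00106). At 3 months Impdh1 was at -0.10 by genotype (adjusted p = 0.613), and both the difference between ages (0.57, adjusted p = 0.0294) and that in the rapamycin response between genotypes at 9 months (-0.55, adjusted p = 0.0399) passed. In 3mTSCmKO it was higher after rapamycin, at 0.30 (adjusted p = 0.0479).

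**Figure D4:**
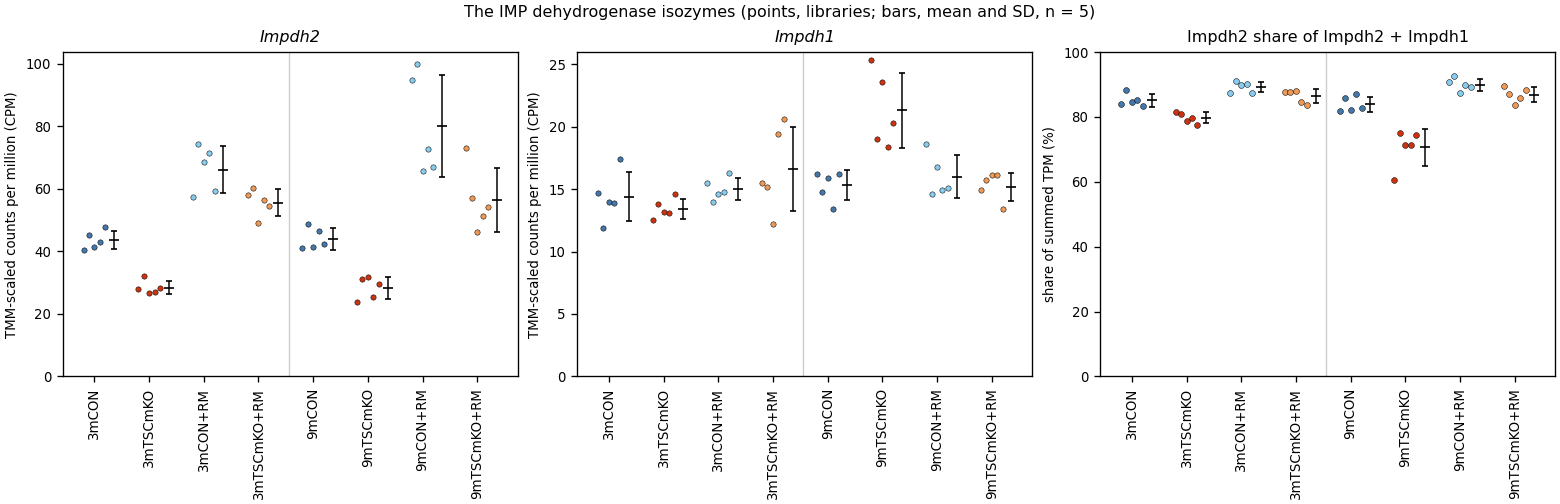
Impdh2 and Impdh1 in CPM, from 0 (left and middle), and the share of Impdh2 in their summed TPM in percent (right), in the 8 groups; points are libraries and bars the mean and SD of 5. In 9mTSCmKO Impdh2 is low (23.7 to 31.8 CPM), Impdh1 is high (18.4 to 25.3 CPM) and the share lies at 60.7% to 75.1%.

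The genes that feed or surround the route were split in direction in 9mTSCmKO. Median log2 fold changes of 8 neighbouring lists ran from -0.16 for the formyl and glycine donors to 0.23 for the other purine branch enzymes, against -0.022 over all genes. The counts of called genes in each list stand beside 19.1% of all genes higher and 18.9% lower. Without 9mTSCmKO replicate 1, 3 of the 32 called genes of these lists lost the call by genotype at 9 months and 5 others gained it, and after rapamycin at 9 months in TSCmKO 4 of 28 lost it and 1 gained it, while Cda, called in both comparisons, was not tested. In these lists, which include Impdh1, 1 of 6 calls of the genotype by age interaction was then lost and 1 gained. Of the 10 calls of the rapamycin by genotype interaction at 9 months 1 was lost. Of 11 genes of PRPP supply and the pentose phosphate route 3 were higher and 3 lower by genotype at 9 months. Prps1, which makes PRPP, was lower (47.1 ± 6.74 CPM in 9mCON and 25.9 ± 5.83 in 9mTSCmKO; -0.86, adjusted p = 1.35e-06), while the pentose phosphate enzymes Pgd (1.23, adjusted p = 9.32e-09) and Taldo1 (0.68, adjusted p = 0.000197) were higher. Among the 4 other purine branch enzymes Adsl, which acts both in the trunk and after IMP, was lower (-0.59, adjusted p = 9.89e-06), and Gmps, the GMP synthetase that follows IMP dehydrogenase, was higher (93.2 ± 38.7 CPM against 50 ± 5.76; 0.90, adjusted p = 1.03e-05), as was Impdh1. Without 9mTSCmKO replicate 1 Gmps was at 0.62 (adjusted p = 7.94e-05). Adsl was higher after rapamycin in TSCmKO at both ages (0.42, adjusted p = 0.00118, and 0.44, adjusted p = 0.00106).

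Folate enzymes supply the formyl groups of the purine ring, and of 8 such genes 3 were higher and 2 lower in 9mTSCmKO. Mthfd2, a mitochondrial folate enzyme, stood at 35.8 ± 4.56 CPM in 9mTSCmKO and 3.85 ± 0.991 CPM in 9mCON (SD, n = 5; 3.21, SE 0.236, adjusted p = 1.07e-13), and at 22.8 ± 4.19 against 3.52 ± 0.684 CPM at 3 months (2.68, adjusted p = 2.61e-11). Rapamycin lowered it in TSCmKO to 13.5 ± 3.28 CPM at 9 months (-1.41, adjusted p = 3.04e-06) and to 7.05 ± 1.9 CPM at 3 months (-1.69, adjusted p = 2.12e-07). The cytosolic Shmt1, which moves a carbon from serine to folate, was lower in 9mTSCmKO (-1.34, adjusted p = 2.17e-06), and Aldh1l1, which uses up formyl folate, was higher (1.06, adjusted p = 1.57e-05).

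Of 13 genes that lead from UMP to CTP and to DNA precursors 4 were higher and 2 lower in 9mTSCmKO. The ribonucleotide reductase subunit Rrm2, a gene of S phase, stood at 4.74 ± 1.61 CPM against 0.446 ± 0.122 (3.41, adjusted p = 3.35e-09), and its partner Rrm1 was lower (-0.65, adjusted p = 2.88e-05). Outside 9mTSCmKO the group means of Rrm2 were 0.332 CPM (9mCON+RM) to 1.13 CPM (3mTSCmKO), near the filter of 1 CPM. How far Rrm2 was tested only because of its level in 9mTSCmKO was not examined. Ctps2, a CTP synthase, was higher (1.03, adjusted p = 9.07e-08). Mki67 had at most 3 counts in every library, and the summed CPM of 10 cycling cell markers was 4.06 to 13.2 in 9mTSCmKO and 3.17 to 6.44 in 9mCON, with 3 of the 10 testable. Of these Birc5 was higher (1.52, adjusted p = 0.00152) and Mcm5 lower (-1.18, adjusted p = 0.0283) by genotype at 9 months, Mcm5 without a call once 9mTSCmKO replicate 1 was left out (-0.89, adjusted p = 0.0844), and Top2a was at 1.14 (adjusted p = 0.061). These markers were named after their values were seen. The part of cycling cells in Rrm2 was not tested.

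Salvage, which recovers bases and nucleosides, was mixed as well. Of 6 purine salvage genes tested 2 were higher in 9mTSCmKO, Hprt (0.52, adjusted p = 0.00626) and Dck (0.66, adjusted p = 0.0198; 0.54, adjusted p = 0.068, without 9mTSCmKO replicate 1), and Adk, the adenosine kinase, was lower (-1.0, adjusted p = 4.46e-06). Of 7 pyrimidine salvage genes Cda, the cytidine deaminase, was higher at a low level (1.75, adjusted p = 5.44e-05, 1.77 ± 0.527 against 0.535 ± 0.244 CPM, and under the filter on low counts without 9mTSCmKO replicate 1) and the uridine kinase gene Uckl1 lower (-0.61, adjusted p = 0.000222). In the purine nucleotide cycle and nucleotide breakdown 4 of 12 were higher and 2 lower. The nucleotidases Nt5c2 (1.70, adjusted p = 6.75e-12) and Nt5c3 (0.95, adjusted p = 2.22e-08) rose, and Ampd1, the muscle AMP deaminase that works with Adssl1, fell from 1140 ± 21.5 to 548 ± 65.4 CPM (-1.05, adjusted p = 2.03e-07).

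After rapamycin in 9mTSCmKO the lists were mixed too, beside 15.8% of all genes higher and 16.8% lower. Of the PRPP and pentose phosphate genes 2 were higher and 2 lower, of the CTP and DNA precursor genes 3 and 3, and of the pyrimidine salvage genes 2 and 1. Of the other purine branch enzymes 1 was higher and 2 lower, of the cycle and breakdown genes 1 and 3, and of the regulators 1 and 2. The formyl donors had 2 lower and the purine salvage genes 3 lower, with none higher in either list.

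Among 7 tested regulator genes Srebf1, a factor of lipid synthesis genes, was the one called by genotype at 9 months, lower in TSCmKO (-0.69, adjusted p = 0.000474). Myc was at -0.66 there (adjusted p = 0.0659; -0.77, adjusted p = 0.0464, without 9mTSCmKO replicate 1) and was lower at 3 months (-1.28, adjusted p = 0.00118). The other regulator called by genotype at 3 months was Mlxip, which was higher in TSCmKO (0.86, adjusted p = 3.55e-05). After rapamycin Myc was higher in 9mTSCmKO (1.48, adjusted p = 9.91e-05) and in 3mTSCmKO (1.56, adjusted p = 9.15e-05). Other regulators had the opposite direction after rapamycin: Mlx was lower at 9 and 3 months (-0.56 and -0.71, adjusted p = 0.00652 and 0.000867), as was Mlxip (-0.51 and -0.78, adjusted p = 0.00833 and 0.000131), and Max (-0.32, adjusted p = 0.0359) and Rps6kb1 (-0.43, adjusted p = 0.000336) were lower at 3 months. Atf4 was at 0.26 by genotype at 9 months (adjusted p = 0.131). Srebf1 apart, these regulators were named after their values were seen.

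**Figure D5:**
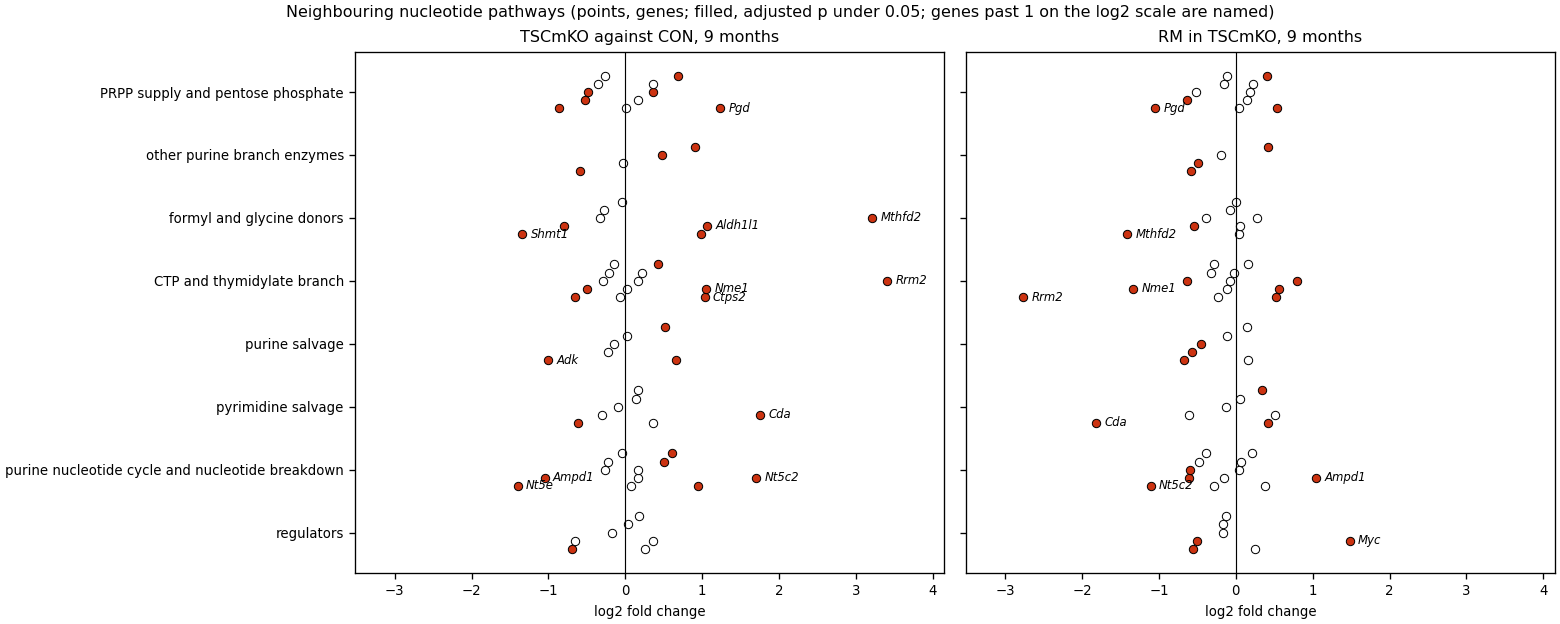
Log2 fold change of the genes of 8 neighbouring lists, 1 point a gene, for TSCmKO against CON at 9 months (left) and for rapamycin in TSCmKO at 9 months (right); filled points have an adjusted p under 0.05, and genes at least 1 from 0 are named. Mthfd2 (3.21) and Rrm2 (3.41) lie farthest right on the left panel and below 0 on the right one (-1.41 and -2.77). Both panels use the 9mTSCmKO libraries, with opposite sign, and Rrm2 was near the filter on low counts in the other groups.

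Across the 40 libraries the 10 genes did not share 1 pattern. Pearson's r of log2 CPM, which here also reflects the groups the libraries share, was highest between Dhodh and Umps (0.727) and between Impdh2 and Umps (0.72), and it was 0.651 between Impdh2 and Cad. The head-to-head pair Ppat and Paics had r = 0.549, and Pfas and Adssl1 had r = -0.519, the lowest among the 45 pairs. Son, beside Gart, was not called in any of the 13 comparisons by edgeR.

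By the same measure the nearest other genes were Eef2 (0.964) and Kdelr1 (0.96) for Impdh2, Ryr1 (0.9), itself 1 of the muscle fiber markers, and Gtf3c1 (0.895) for Cad, Itga7 (0.893) and Cand2 (0.878) for Atic, and Ddx17 (0.871) and Zcchc7 (0.852) for Pfas. Umps was nearest to Mpst and Tmem109 (0.858 for both), and Dhodh to Bckdk (0.865). Gart was nearest to Iars (0.813) and Shisa2 (0.808), Ppat to Utp6 (0.799) and Slc16a10 (0.787), and Paics to Mospd1 (0.715) and Tigar (0.714). In the library with the high Pfas value, 9mTSCmKO replicate 1, Ddx17 and Zcchc7 were also the highest of their group, at 102 CPM against 61.2 to 88.2 CPM and at 66 CPM against 28.6 to 35.3 CPM. In 9mCON the highest Pfas, Ddx17 (143 CPM) and Zcchc7 (79.8 CPM) values all came from replicate 1. Both genes were picked for their correlation with Pfas over these same libraries, which favours such matches.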

How the data were processed

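Poly(A) RNA of EDL muscle was sequenced as directional single-end reads. Per the study's methods and processing notes, the authors trimmed reads with cutadapt 1.9.1 and assigned them with kallisto 0.43.1 to protein-coding transcripts of Ensembl GRCm38, and a read that matched several transcripts was divided equally among them. The authors deposited estimated counts per gene and TPM values. TPM, as deposited, served to order genes within a group and to give isozyme shares, which were also set side by side between groups. No test was run on TPM. The estimated counts were whole numbers as deposited, so that rounding them here changed nothing.

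Genes with at least 1 CPM in at least 5 of the 40 libraries were kept (13543 of 22844); they held 99.8% or more of a library's counts (totals 8883870 to 35224669). One model with 8 groups was fitted in R 4.3.3 with the quasi-likelihood F-test of edgeR 4.0.16 (limma 3.58.1) after TMM scaling, and 13 comparisons were tested, each with Benjamini-Hochberg adjustment over all genes and a threshold of 0.05. All adjusted p in the text are from this test unless another tool is named. Standard errors were derived from the F statistics, and intervals are 95%. P-values rest on the spread between mice, 1 library each. That spread was estimated for each gene over all 8 groups together, and not from the compared groups alone. The share of all genes whose groups did not overlap was not counted. The script was tested on simulated counts.

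Alternatives were RLE and upper-quartile scaling, no filter, only the compared groups, insert size as a term, a replicate block, DESeq2 1.42.0 and leaving out each library. Leaving out a library was scored only in the comparisons that use its group. The numbers of the libraries did not pair them: in no comparison did all same-numbered pairs correlate above 0.1 in their deviations from the group means (range -0.363 to 0.289).

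Named genes were the 10 members, Tsc1, the isozymes Adss and Impdh1, up to 3 genes per neighbouring list with the smallest adjusted p by genotype at 9 months, the 2 genes with the highest correlation to each member, and head-to-head neighbours. Some of the correlated genes are not reported here. The members and lists were chosen with earlier results of these data known. Gene positions are from GENCODE M21 (GRCm38) and promoters from RefSeq.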

Additional observations from a re-analysis of the deposited data

Results flagged for a closer look

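In each group of 5 libraries the highest and the lowest value of each enzyme were compared with their nearest neighbour, and 6 of the 80 groups had a value whose gap exceeded Dixon's 95% limit, where chance gives about 1 in 20. In 9mTSCmKO replicate 1 Pfas stood at 39.1 CPM, with 11.4 the next highest value, and Atic at 17.2 CPM, with 25.5 the next lowest. In 3mTSCmKO replicate 2 Impdh2 stood at 32.1 CPM, with 28.2 next, and Cad at 10.6 CPM, with 8.94 next. Cad was at 15.1 CPM in 9mCON replicate 5, with 9.91 next, and Umps was at 13 CPM in 9mTSCmKO+RM replicate 1, with 7.72 next.

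Of 30 interaction tests on the 10 enzymes 1 passed by edgeR: the genotype effect on Adssl1 differed between ages by -0.448 on the log2 scale (adjusted p = 0.0342). Of all genes 4.94% passed this interaction, and 4.87% and 3.45% those of rapamycin with genotype at 9 and 3 months. The call on Adssl1 was lost in 7 fits that left out 1 library, and with no filter, only the compared groups or insert size as a term.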

How the results depend on the processing

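Of the values of single enzymes under each alternative, 1540 with a library left out and 886 under other settings stayed on their side of the threshold, 42 and 14 fell short of it and 17 and 10 newly passed it. The sign turned in 61 of 1600 values with a library left out and in 11 of 910 under other settings. In all of these but 1 the enzyme was called in neither fit, Pfas without 9mTSCmKO replicate 1 by age in TSCmKO and in the interactions of genotype with age and with rapamycin at 9 months among them. The exception was Pfas after rapamycin in 9mTSCmKO, at -0.13 with all libraries, -0.32 to 0.54 with 1 left out, and 0.54 without 9mTSCmKO replicate 1. For the counts of enzymes called, leaving out 1 library gave 4 to 6 by genotype at 9 months, 4 at 3 months, 4 to 7 and 6 to 8 for rapamycin in TSCmKO at 9 and 3 months, 1 to 2 and 1 in CON, 0 and 2 to 4 for age in CON and TSCmKO, 4 to 5 and 2 to 4 for treated TSCmKO against untreated CON, 0 to 2 for genotype by age, and 0 to 1 for rapamycin by genotype at each age. Rapamycin in CON at 9 months gave 1 in place of 2 under upper-quartile scaling, no filter, only the compared groups and the replicate block, each time because Atic was lost (0.32 to 0.38). The replicate block changed no other call of an enzyme. Rapamycin in CON at 3 months gave 2 with only the compared groups, where Adssl1 passed (-0.26). Age in TSCmKO gave 1 with insert size, and genotype by age gave 0 with no filter, only the compared groups or insert size. Rapamycin by genotype gave 1 (Umps) at 9 months under upper-quartile scaling (0.76), insert size (0.84) and DESeq2 (0.72), and 2 (Pfas 0.75 and Impdh2 0.37) at 3 months with only the compared groups. By genotype at 9 months, Ppat was lost under RLE scaling (-0.37, adjusted p = 0.0502), and with only the compared groups so were Ppat (-0.35, adjusted p = 0.155) and Pfas (-0.68, adjusted p = 0.263). Impdh2 in treated TSCmKO against untreated CON at 9 months was lost with only the compared groups (0.37, adjusted p = 0.0552), as was Ppat by age in TSCmKO (-0.39, adjusted p = 0.149). With only the compared groups, Umps after rapamycin in 3mTSCmKO (0.39, adjusted p = 0.0222) and Pfas in treated TSCmKO against untreated CON at 3 months (-0.41, adjusted p = 0.00644) newly passed. Under upper-quartile scaling Umps after rapamycin in 3mTSCmKO (0.44, adjusted p = 0.0378) and Gart by genotype at 9 months (-0.28, adjusted p = 0.0446) newly passed. The causes were not tested.

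Fits to only the compared groups changed the number of all genes called by over 1.5 times: 2647 against 5133 by genotype at 9 months, 2544 against 4410 and 554 against 1604 for rapamycin in TSCmKO and CON at 9 months, 419 against 92 in CON at 3 months, 30 against 138 and 3324 against 5064 for age in CON and TSCmKO, 3611 against 2260 for treated TSCmKO at 3 months, and 312 against 669, 209 against 660 and 1194 against 467 for the interactions with age and with rapamycin at 9 and 3 months. No filter gave 38, 83 and 435 for rapamycin in CON at 3 months, age in CON and rapamycin by genotype at 9 months. Insert size gave 26 and 1701 for age in CON and TSCmKO, and DESeq2 gave 181 and 375 for rapamycin in CON at 3 months and age in CON. Umps, with as few as 74 counts in a library, had an SE of 0.164 by genotype at 9 months, and Pfas one of 0.252.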

Other observations

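Ctps, 1 of the genes for CTP synthase, the enzyme after UMP, was higher after rapamycin in all 4 comparisons, as was Impdh2. Its log2 fold change was 0.56 in 9mTSCmKO (adjusted p = 0.000377), 0.53 in 3mTSCmKO (adjusted p = 0.000923), 0.64 in 9mCON (adjusted p = 0.000402) and 0.56 in 3mCON (adjusted p = 0.0151). By genotype Ctps was at -0.07 and 0.06 at 9 and 3 months (adjusted p = 0.679 and 0.797). Its paralog Ctps2 was higher in TSCmKO at both ages (1.03 and 0.61, adjusted p = 9.07e-08 and 0.000686) and lower after rapamycin in 9mTSCmKO (-0.63, adjusted p = 0.0003). Ctps was named after its values were seen.

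Ampd1 and Adssl1, partners in the purine nucleotide cycle, had different values by genotype: Ampd1 was at -1.05 and -0.23 at 9 and 3 months (adjusted p = 2.03e-07 and 0.266), and Adssl1 at -0.08 and 0.37. After rapamycin in 9mTSCmKO Ampd1 was at 1130 ± 133 CPM (SD, n = 5), against 548 ± 65.4 CPM with vehicle (1.04, adjusted p = 5.82e-07).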
